A study of Mus musculus with 10 samples.

Results

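The T cell receptor is read out here through 9 genes, taken by gene symbol from a table of 18994 genes of mouse cheek skin: the receptor chains Cd3g, Cd3d, Cd3e and Cd247, the kinases Lck and Zap70, the adaptor Lat, and the costimulatory receptors Cd28 and Icos. All 9 were in the table. The set was chosen by gene name with the differences in read counts between MMP9 and vehicle in these same libraries already known, that of Cd247 among them, so the differences between the groups are given as a description and support no claim about the set.

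Whole cheek skin came from C57BL/6 mice aged 6 to 8 weeks, shaved 3 days earlier and injected in the dermis of the right cheek with 5 µL, and it was collected 4 hours afterwards. The MMP9 group (5 mice) received 1 µg of matrix metalloproteinase 9, a secreted gelatinase, and the vehicle group (5 mice) received the same volume without it. Both groups were therefore shaved and injected, and an uninjected group is not part of the comparison. The mRNA of each mouse was 1 library, sequenced as single reads of 50 bases on a DNBSeq instrument, with 17121541 to 19443099 estimated reads per library.

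A T cell recognises antigen through an alpha-beta or gamma-delta receptor that has almost no cytoplasmic part of its own. The signal is carried by the associated CD3 gamma, delta and epsilon chains and by the zeta chain, whose cytoplasmic tyrosine motifs are phosphorylated by LCK. ZAP70 docks on the phosphorylated motifs and phosphorylates LAT, which gathers the enzymes and adaptors of the downstream pathway, while CD28 and ICOS add a costimulatory signal. Mouse skin holds such cells in both layers, with gamma-delta dendritic epidermal T cells in the epidermis and alpha-beta and gamma-delta T cells in the dermis. In whole tissue, fewer T cells and less of a transcript per T cell cannot be told apart.

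The sequences just upstream of the 4 receptor chain genes are shown because these genes encode subunits of 1 complex and yet stood at very different levels in the libraries. Each window is the 250 bases before a RefSeq transcript start on GRCm38.p6, an earlier build than the GRCm39 build of the expression table, and reads 5′ to 3′ in the direction of transcription. Capitals mark matches to GGAAGT on either strand, the core of sites bound by ETS factors.
Cd3g (chr9:44980432-44980681, minus strand): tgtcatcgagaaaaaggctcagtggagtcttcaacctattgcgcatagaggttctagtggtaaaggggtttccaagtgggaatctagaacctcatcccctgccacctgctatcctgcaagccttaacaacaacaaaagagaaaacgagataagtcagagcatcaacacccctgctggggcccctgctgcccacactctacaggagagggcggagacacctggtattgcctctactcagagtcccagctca
Cd3d (chr9:44981536-44981785, plus strand): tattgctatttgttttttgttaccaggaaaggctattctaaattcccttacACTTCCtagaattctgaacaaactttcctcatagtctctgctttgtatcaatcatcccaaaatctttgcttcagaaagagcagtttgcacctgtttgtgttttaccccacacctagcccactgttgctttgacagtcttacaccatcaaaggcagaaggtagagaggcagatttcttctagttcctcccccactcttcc
Cd3e (chr9:45009612-45009861, minus strand): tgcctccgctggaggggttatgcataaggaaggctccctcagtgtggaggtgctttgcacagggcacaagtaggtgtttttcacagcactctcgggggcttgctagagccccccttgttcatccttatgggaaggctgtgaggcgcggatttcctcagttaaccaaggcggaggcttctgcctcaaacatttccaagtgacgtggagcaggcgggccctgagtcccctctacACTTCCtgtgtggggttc
Cd247 (chr1:165788431-165788680, plus strand): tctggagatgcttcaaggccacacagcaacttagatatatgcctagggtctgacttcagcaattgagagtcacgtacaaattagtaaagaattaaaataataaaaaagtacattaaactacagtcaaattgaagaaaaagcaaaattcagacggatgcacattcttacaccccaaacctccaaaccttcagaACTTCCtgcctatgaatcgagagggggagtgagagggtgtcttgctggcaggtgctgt
Cd3d, Cd3e and Cd247 each held 1 such match and Cd3g held none, although Cd3g and Cd3d are neighbours on chromosome 9 that are transcribed away from each other. Of the 9 genes, 7 had a window in the RefSeq table, with 10 windows between them, since Zap70 and Lck have several starts. The ETS letters were found in 6 of these 10 windows and in 19.7% of 32851 windows of all genes. TGTGGT (either strand), the core bound by RUNX factors, was found in 2 of the 10 (a Zap70 start and a Lck start) against 14% of all windows, and the E-box CAGGTG (either strand) in 6 of the 10 against 17.2%. AGATAA (either strand), a GATA factor core, was found only in the window of Cd3g among the 10, against 10% of all windows, and TATAAA (either strand) in 0 of the 10 against 12.4%. Windows of 1 gene share sequence context, and a match is no evidence of binding.

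Per unit of transcript length, Cd3g, Cd247 and Cd3e had the highest levels of the set and the costimulatory receptors Icos and Cd28 the lowest. Cd3g, the gamma chain of CD3, had 40.1 ± 5.96 TPM over the 10 libraries (SD), more than 81.3% of the genes in the table. Cd247, which encodes the zeta chain, followed with 16.5 ± 2.63 TPM and Cd3e, the epsilon chain, with 8.38 ± 1.89 TPM. In all 10 libraries Cd3g lay above Cd247 and Cd247 above Cd3e, and their ranges did not overlap.

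Lat, Cd3d and Lck came next, with 6.43 ± 1.75, 6.01 ± 0.913 and 4.21 ± 1.25 TPM. These neighbours were not clearly ordered: Cd3e was above Lat in 8 of 10 libraries, Lat above Cd3d, the delta chain, in 6 of 10, and Cd3d above Lck in 9 of 10. Zap70 had 3.02 ± 0.725 TPM and lay below Lck in 10 of 10 libraries, with overlapping ranges. Icos had 1.10 ± 0.430 TPM and Cd28 0.292 ± 0.134 TPM, more than 26.4% and 18% of all genes. Cd28 rested on 3 to 25 reads per library, and the 3 reads of vehicle replicate 3 have an exact Poisson interval of 0.62 to 8.77 at the 95% level, which covers counting error only.

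The order by FPKM was the same for all 9 genes. The CD3 chains enter the receptor as gamma-epsilon and delta-epsilon pairs, yet their transcripts were not in equal amounts. Cd3g exceeded Cd3d by 4.63 to 9.26 times in TPM and Cd3e by 3.52 to 10.6 times. The deposited estimated counts and FPKM values imply a length of 974 bases for Cd3g, 1026 for Cd3d and 1414 for Cd3e. For Cd3d and Zap70 this implied length ranged over 12.1% and 22.4% of its median between libraries, so that their level per length carries an extra uncertainty.

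MMP9 replicate 4 stood apart from the other libraries and touches several of the values that follow. Transcripts of 82 ribosomal protein genes took 12.9% of its reads, against 6.59% to 7.44% in the other 9 libraries, and its median TPM over all genes was 5.30 against 8.24 to 9.15. Genes with an implied length under 1000 bases (1239 tested genes) lay a median 0.79 above the other MMP9 libraries on the log2 CPM scale, and genes of 4000 bases or more (3978 genes) a median of -0.36. In the other 9 libraries, each set against the rest of its own group, the same 2 medians lay between -0.31 and 0.07 and between -0.03 and 0.16. For the other MMP9 libraries that comparison includes replicate 4. Among vehicle libraries alone the medians lay between -0.05 and 0.07 and between -0.03 and 0.04. The log2 deviation of this library from the other MMP9 libraries was 0.67 for Cd3g, 0.48 for Cd3d and 0.39 for Cd247. It was -0.41 for Cd3e, -0.23 for Zap70, -0.19 for Lck, -0.14 for Icos and -0.04 for Lat. The part of transcript length in these deviations was not tested for single genes.

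**Figure D1:**
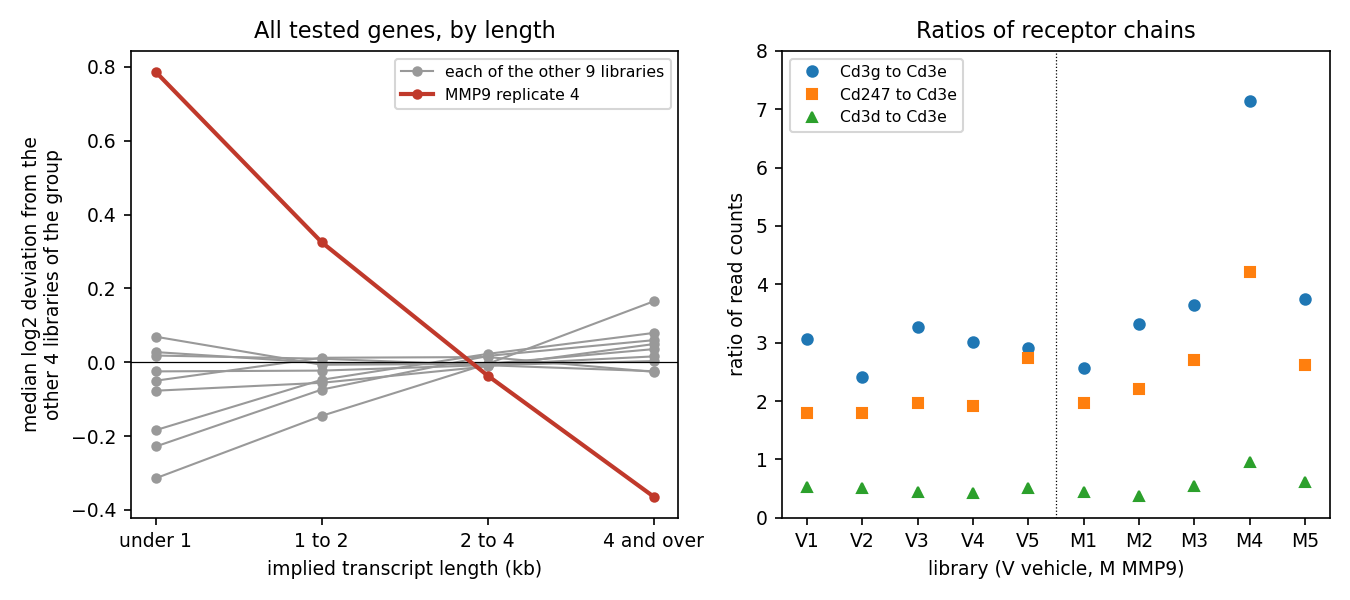
Left, median log2 deviation of each library from the other 4 of its group, over tested genes in 4 classes of implied transcript length; MMP9 replicate 4 runs from 0.79 for the shortest to -0.36 for the longest. Right, ratios of the read counts of Cd3g, Cd247 and Cd3d to Cd3e in each library, with V for vehicle and M for MMP9; the Cd3g to Cd3e ratio is 7.13 in MMP9 replicate 4 and 2.42 to 3.75 elsewhere.

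The comparison between the groups asks how skin transcripts differ 4 hours after MMP9. Levels are read counts scaled to library size with TMM factors (CPM), and differences are log2 fold changes, MMP9 over vehicle, with the standard error of edgeR's quasi-likelihood fit over 15250 genes. All 9 members had values above 0, from 0.06 for Cd3e to 0.66 for Icos with a median of 0.44, where the median over all tested genes was 0.01 and 53.7% of them were above 0. With Benjamini-Hochberg adjustment over all tested genes, 0 of 9 members passed the threshold of 0.05, and 0% of all tested genes did, with edgeR adjusted p from 0.981 to 0.986 for the members. At an unadjusted p under 0.05 there were 487 of the 15250 genes, DESeq2 called 1 gene, Pnliprp2, which is not a member, and limma-voom called 0. In 2 of 9 members every MMP9 library lay above every vehicle library, Cd3g and Cd247, and so did 0.426% of all tested genes. The choice of the set had used this contrast, so nothing is read from these counts.

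Cd3g (Entrez gene 12502) stood at 22.8, 18.9, 23.3, 20.8 and 17.8 CPM in vehicle replicates 1 to 5 and at 23.7, 26.9, 24.2, 40.5 and 26.6 CPM in MMP9 replicates 1 to 5. The groups did not overlap, but MMP9 replicate 1 was only just above the highest vehicle library, and replicate 4 was far above the rest. MMP9 over vehicle gave 0.45 ± 0.15 on the log2 scale (standard error), and it was 0.29 without MMP9 replicate 4. On the TPM scale, where that library was not high, the groups also did not overlap, with 31.0 to 39.5 TPM in vehicle and 43.4 to 48.1 TPM in MMP9.

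Cd247 (Entrez gene 12503) had 13.4, 14.0, 14.0, 13.2 and 16.7 CPM in vehicle, against 18.2, 17.8, 18.0, 23.9 and 18.6 CPM in MMP9. Besides the zeta chain's place in the T cell receptor, it also serves activating receptors of natural killer cells. Within each group 4 libraries were close together, and the groups were separated by the gap between vehicle replicate 5 and MMP9 replicate 2. MMP9 over vehicle gave 0.44 ± 0.11 on the log2 scale (standard error), and it was 0.34 without MMP9 replicate 4. By TPM the groups overlapped, because MMP9 replicate 4 had 15.8 TPM and vehicle replicate 5 had 17.1 TPM. Pou2f1, a protein-coding gene that overlaps Cd247 on the other strand in the GENCODE M21 annotation, had 12.1 ± 0.715 CPM in vehicle, against 12.1 ± 2.92 CPM in MMP9 (SD, n = 5). Whether counting used strand is not given in the sources used here, so reads of the shared stretch cannot be assigned with certainty.

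Cd3d (Entrez gene 12500) had 3.97, 3.99, 3.18, 2.92 and 3.16 CPM in vehicle, against 4.15, 3.08, 3.65, 5.47 and 4.37 CPM in MMP9. The groups overlapped, with 3 MMP9 libraries above all vehicle libraries. On the log2 scale the difference was 0.26 ± 0.18 (standard error), and 0.14 without MMP9 replicate 4.

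Cd3e (Entrez gene 12501), which encodes the chain shared by both CD3 pairs, had 7.43, 7.81, 7.13, 6.88 and 6.11 CPM in vehicle, against 9.27, 8.09, 6.65, 5.68 and 7.11 CPM in MMP9. MMP9 libraries were both the highest (replicate 1) and the lowest (replicate 4) of the 10, and 3 of them lay within or below the vehicle range. MMP9 over vehicle gave 0.06 ± 0.15 on the log2 scale (standard error) and a 95% interval from -0.26 to 0.38, and it ran from -0.04 to 0.13 over the alternatives. Among the receptor chains the difference was thus 0.45 for Cd3g, 0.44 for Cd247, 0.26 for Cd3d and 0.06 for Cd3e, and the differences between chains were not tested.

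The balance of the chains varied between mice as well. The count ratio of Cd3g to Cd3e was 3.07, 2.42, 3.27, 3.02 and 2.91 in vehicle and 2.56, 3.33, 3.64, 7.13 and 3.75 in MMP9. Only MMP9 replicate 4 lay far outside the range of the others. The ratio of Cd247 to Cd3e was 1.80 to 2.74 in vehicle and 1.96 to 4.21 in MMP9, and the ratio of Cd3g to Cd3d was 4.74 to 7.33 and 5.73 to 8.72, overlapping in both cases. Without MMP9 replicate 4, the mean log2 ratio of Cd3g to Cd3e was 0.17 higher in MMP9 and that of Cd247 to Cd3e was 0.22 higher.

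**Figure D2:**
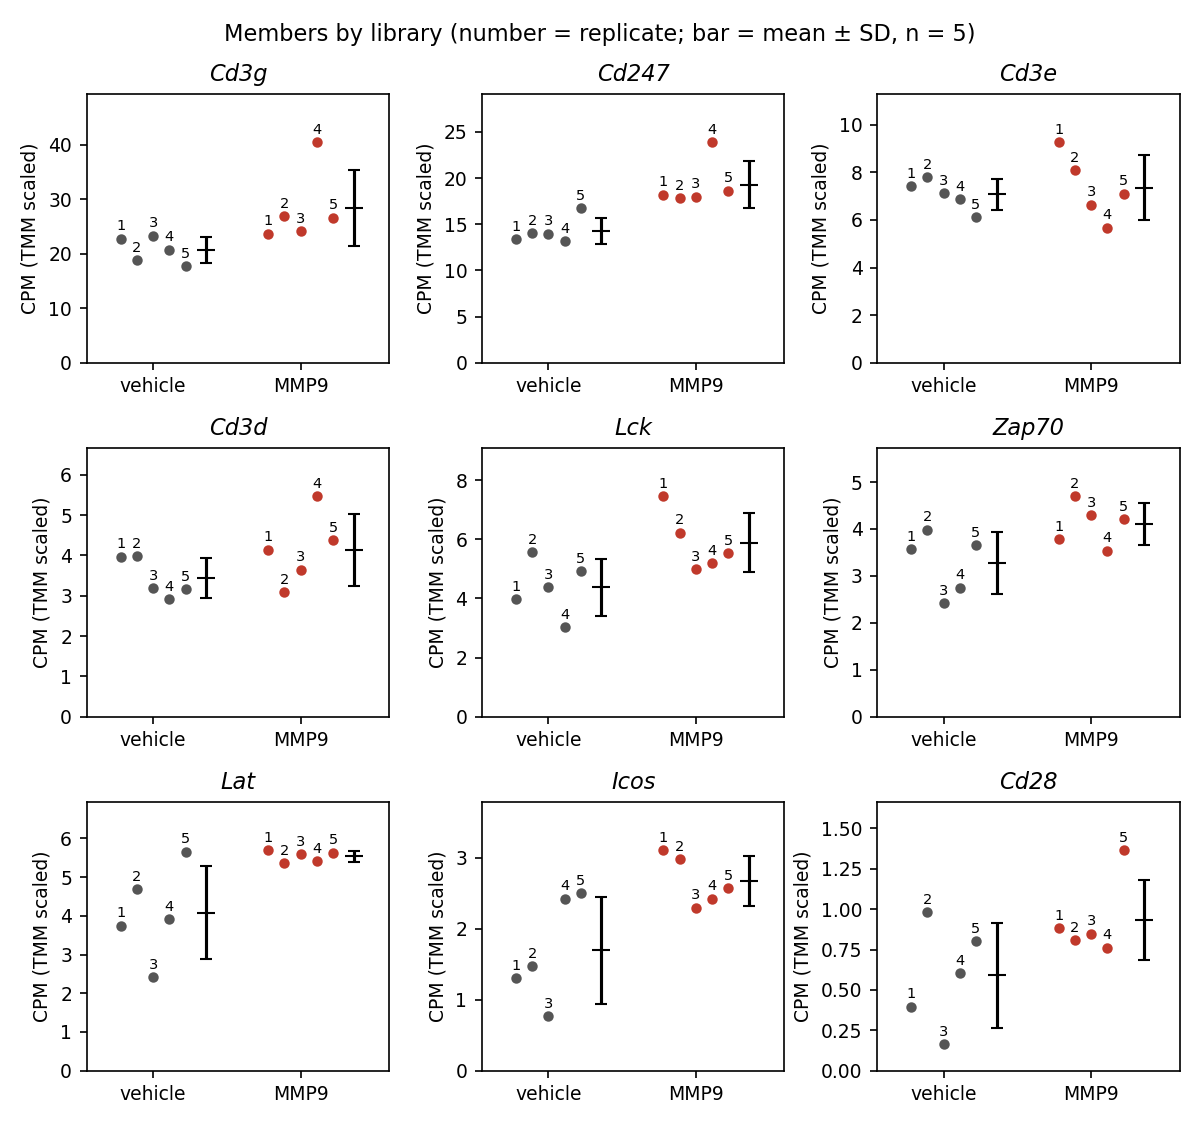
Level of each of the 9 genes in each library (CPM, TMM scaled), as numbered points for the 5 vehicle and the 5 MMP9 mice, with the mean and SD of each group at its right. The groups are apart for Cd3g and Cd247 and overlap for the other 7 genes, and MMP9 replicate 4 is the highest library for Cd3g, Cd247 and Cd3d and the lowest for Cd3e.

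Lck (Entrez gene 16818), the kinase that phosphorylates the receptor motifs, had 3.97, 5.57, 4.39, 3.03 and 4.91 CPM in vehicle, against 7.46, 6.22, 5.00, 5.20 and 5.52 CPM in MMP9. Vehicle replicate 2 exceeded 3 of the 5 MMP9 libraries, so the groups overlapped. MMP9 over vehicle gave 0.43 ± 0.18 on the log2 scale (standard error), and it was 0.46 without MMP9 replicate 4.

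Zap70 (Entrez gene 22637), the kinase that binds the phosphorylated motifs, had 3.57, 3.99, 2.41, 2.75 and 3.66 CPM in vehicle, against 3.78, 4.70, 4.30, 3.53 and 4.21 CPM in MMP9. Vehicle replicates 3 and 4 were below all other libraries, and the remaining vehicle libraries were mixed with those of MMP9. On the log2 scale the difference was 0.33 ± 0.17. (standard error)

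Lat (Entrez gene 16797) encodes the membrane adaptor phosphorylated by ZAP70, which mast cells and platelets also use. It had 3.74, 4.70, 2.41, 3.91 and 5.66 CPM in vehicle, against 5.70, 5.36, 5.60, 5.40 and 5.63 CPM in MMP9. On this scale the 5 MMP9 libraries were nearly equal, with an SD of 0.148 CPM against 1.20 CPM in vehicle, and vehicle replicate 5 reached their level. By TPM the MMP9 libraries were not nearly equal. They ran from 4.86 (replicate 4) to 8.42 TPM, with an SD of 1.41 TPM against 1.72 TPM in vehicle. MMP9 over vehicle gave 0.44 ± 0.20 on the log2 scale (standard error), and it was 0.30 without vehicle replicate 3.

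Icos (Entrez gene 54167), the inducible costimulator of activated and regulatory T cells, had 1.31, 1.47, 0.768, 2.42 and 2.50 CPM in vehicle, against 3.11, 2.98, 2.30, 2.43 and 2.57 CPM in MMP9. Vehicle replicates 4 and 5 lay among the MMP9 libraries, and vehicle replicates 1 to 3 lay below all of them. On the log2 scale the difference was 0.66 ± 0.29 (standard error), and over the alternatives it ran from 0.33 to 0.84.

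Cd28 (Entrez gene 12487), the costimulatory receptor of naive T cells, had 0.397, 0.983, 0.165, 0.605 and 0.802 CPM in vehicle, against 0.881, 0.809, 0.849, 0.762 and 1.37 CPM in MMP9. Vehicle replicate 2 exceeded 4 of the 5 MMP9 libraries. On the log2 scale the difference of 0.65 ± 0.38 (standard error) had a 95% interval from -0.19 to 1.49, which holds both 0 and values above 1. Across Lat, Zap70, Icos and Cd28, vehicle replicate 3 was the lowest of the 10 libraries each time, whereas for Cd3g it was the highest vehicle library.

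**Figure D3:**
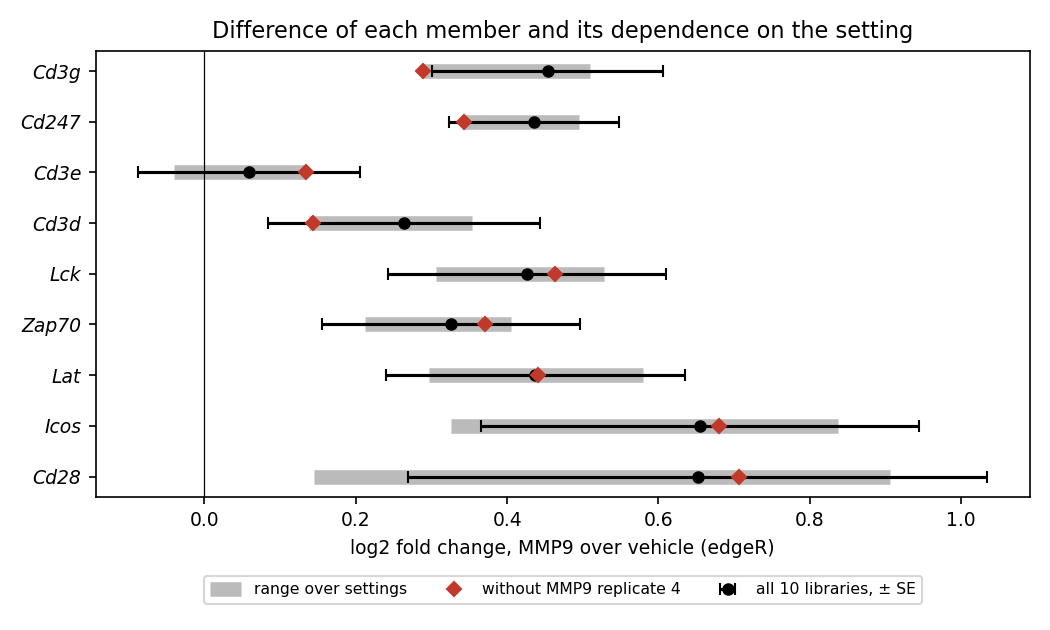
Log2 fold change of each gene, MMP9 over vehicle, with its standard error (black), the value without MMP9 replicate 4 (red diamond) and the range over all settings (grey). Leaving out that library lowers Cd3g from 0.45 to 0.29 and Cd247 from 0.44 to 0.34 and raises Cd3e from 0.06 to 0.13, and only the range of Cd3e includes 0.

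The remaining genes of the pathway were followed through lists, of which 0 members passed in either direction in any list. Of the antigen receptor constant region and coreceptor genes, 3 were measured, Cd4, Cd8a and Cd8b1, and the constant regions themselves were not analysed here. Cd8a, a chain of the coreceptor for class I molecules, had 1.04 ± 0.583 CPM in vehicle, against 1.83 ± 1.04 CPM in MMP9 (SD, n = 5), and Cd8b1 had 0.760 ± 0.806 and 1.29 ± 1.32 CPM. Cd4, the coreceptor for class II molecules, which some myeloid cells also carry, had 5.09 ± 2.82 and 5.36 ± 1.82 CPM. For all 3 the groups overlapped and the SD was large beside the difference.

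Of 24 tested proximal signalling partners, 16 were above 0 and 8 below, with a median log2 fold change of 0.14. In 0 of the 24 were the groups apart. Themis, a regulator of receptor signalling in thymocytes, had 0.737 ± 0.152 CPM in vehicle, against 1.11 ± 0.264 CPM in MMP9, and Trat1, a receptor-associated adaptor, had 8.06 ± 1.86 and 10.6 ± 2.11 CPM. The adaptor gene Sla2 had a log2 fold change of 0.41, the adaptor gene Skap1 of 0.38 and Malt1, a protease of the NF-kB branch, of 0.14, which was 0.23 without MMP9 replicate 4.

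The 12 tested genes of the list of negative regulators were evenly split, with 6 above and 6 below 0. Their median was 0.01, and 0.05 without MMP9 replicate 4. Cblb, a ubiquitin ligase that restrains costimulation-independent activation, had 38.4 ± 1.59 and 32.9 ± 4.99 CPM, and Dgka, a diacylglycerol kinase, had 79.6 ± 6.96 and 72.5 ± 8.74 CPM. Sit1, a transmembrane adaptor of lymphocytes, had a log2 fold change of 0.52, and Ptprc of 0.27. Ptprc encodes CD45, a phosphatase present on leukocytes generally, which also activates LCK and so is not only a negative regulator.

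Among the other costimulatory and inhibitory receptors, 9 of 11 were above 0, with a median of 0.26. Cd96 had 4.61 ± 1.01 and 6.62 ± 1.05 CPM, and Cd27 had 1.18 ± 0.322 and 1.79 ± 0.225 CPM. Tnfrsf9, which encodes 4-1BB, had a log2 fold change of 0.88 that was 0.62 without MMP9 replicate 4, and Ctla4, the inhibitory counterpart of Cd28, had 0.50. The ligands of these receptors gave 5 above and 4 below 0 of 9, with a median of 0.08 that was 0.12 without MMP9 replicate 4. Cd274, which encodes PD-L1, had 32.1 ± 5.30 and 43.6 ± 13.3 CPM, Pdcd1lg2 a log2 fold change of 0.55, Cd86, a ligand of CD28, of 0.22, and Pvr of -0.30.

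Genes that follow T cell activation gave 5 above and 6 below 0 of 11, with a median of -0.06 that was 0.06 without MMP9 replicate 4. Il2ra, the alpha chain of the interleukin 2 receptor, had 3.53 ± 0.696 and 4.33 ± 0.495 CPM, and Cd69, an early activation antigen of lymphocytes, had 2.54 ± 1.13 and 3.68 ± 1.16 CPM. Egr2 and Myc, which other skin cells also transcribe, had log2 fold changes of -0.17 and -0.22. The cytokine genes Il2 and Ifng summed to 16 and 33 reads in the 10 libraries, too few to be tested. T cell lineage and subset genes gave 12 above and 5 below 0 of 17, with a median of 0.29. Ccr6, a receptor on skin-homing and interleukin 17 producing cells, had 0.740 ± 0.143 and 1.24 ± 0.415 CPM, Cxcr6 3.60 ± 1.06 and 5.39 ± 1.57 CPM, and Il2rb 11.1 ± 2.23 and 13.8 ± 2.01 CPM. The 5 genes below 0 were Lef1, with a log2 fold change of -0.74 (7.40 ± 4.55 and 4.41 ± 2.11 CPM), and Tcf7, Rora, Gata3 and Bcl11b, from -0.13 to -0.03. Other skin cells also transcribe these 5 genes. Rora, Gata3 and Bcl11b had means of 164, 130 and 45.8 CPM in vehicle, against 7.07 CPM for Cd3e. Which cells gave these values was not tested.

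**Figure D4:**
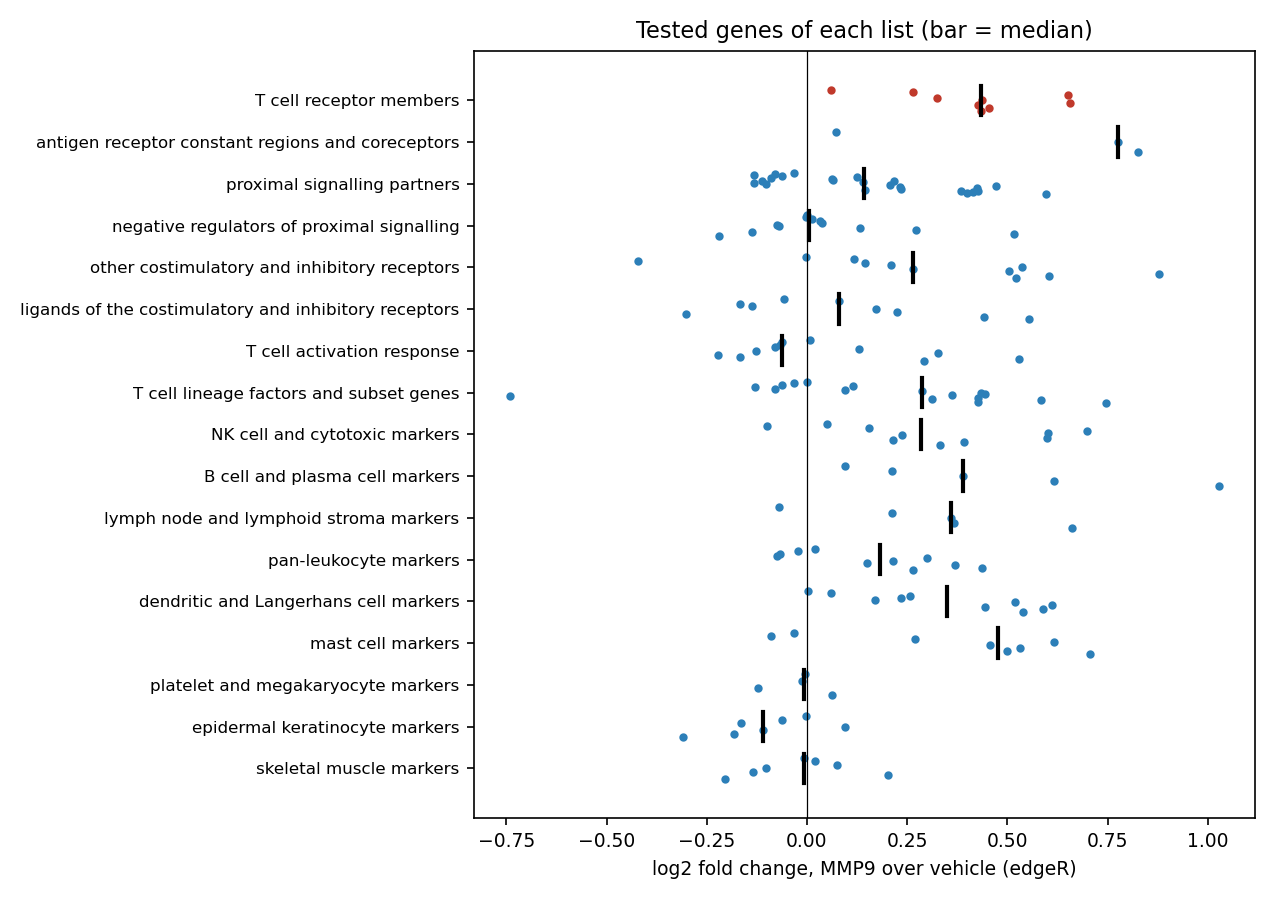
Log2 fold change of every tested gene of each list (points) with the list's median (black bar), hair follicle keratins left out of the plot for scale. The 9 T cell receptor genes (red) have a median of 0.44, dendritic and Langerhans cell markers 0.35, mast cell markers 0.48 and pan-leukocyte markers 0.18, while platelet, keratinocyte and muscle markers have medians from -0.11 to -0.01.

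Markers of other leukocytes also had mostly positive values, and their part in the values above was not tested. Natural killer and cytotoxic cell genes, cells that share Cd247, Zap70 and Lck with T cells, were above 0 in 9 of 10, with a median of 0.28 and a summed level of 55.3 to 83.1 CPM in vehicle, against 70.6 to 83.0 CPM in MMP9. The defining gene Ncr1 was sparse, with 77.0 reads over all libraries, and had 0.408 ± 0.381 CPM in vehicle, against 0.404 ± 0.223 CPM in MMP9. Prf1, Xcl1, Nkg7 and Klrb1c had log2 fold changes of 0.33, 0.39, 0.21 and 0.60, and Xcl1 had 0.23 without MMP9 replicate 4. The 1 tested gene below 0, Gzmc, had -0.10. Dendritic and Langerhans cell markers were above 0 in 10 of 10, with a median of 0.35 and sums of 80.1 to 152 CPM and 128 to 168 CPM. Cd207, Xcr1, Clec9a and Itgax had log2 fold changes of 0.54, 0.59, 0.44 and 0.61, and Cd207 had 0.33 without MMP9 replicate 4.

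Mast cell markers, of interest because mast cells use Lat, were above 0 in 6 of 8, with a median of 0.48 that was 0.29 without MMP9 replicate 4, and with sums of 100.4 to 449 CPM and 269.6 to 488 CPM. Ms4a2, Mcpt4, Cpa3 and Cma1 had log2 fold changes of 0.71, 0.50, 0.53 and 0.46, and Cpa3 had 0.34 without that library. Platelet markers gave 1 above and 3 below 0 of 4, with a median of -0.01 and sums of 18.6 to 56.2 CPM and 21.8 to 48.3 CPM. Gp1ba, Pf4, Ppbp and Itga2b had log2 fold changes of 0.06, -0.12, -0.01 and -0.004, and without MMP9 replicate 4 Pf4 had -0.25, Ppbp -0.04 and Itga2b 0.03.

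Lymphoid tissue and B cells were looked for because whole tissue could hold both. B cell markers were low, with summed levels of 2.47 to 7.16 CPM in vehicle, against 4.66 to 8.47 CPM in MMP9 over 9 genes. Ms4a1 had 11 reads over all libraries, and the 5 tested genes were above 0, with a median of 0.39 that was 0.24 without MMP9 replicate 4. Fcrla, Cd22, Pax5 and Cd79b had log2 fold changes of 1.03, 0.62, 0.39 and 0.21, and Pax5 had 0.18 without that library. Lymph node and lymphoid stroma markers were above 0 in 4 of 5, with a median of 0.36 that was 0.22 without that library, and sums of 169.6 to 345 CPM and 270.1 to 459 CPM, mostly from Ccl21a, a chemokine gene of lymphatic endothelium. Cr2, a marker of follicular dendritic cells and B cells, had 11.9 reads over all libraries, and Ccl19, Ccl21a and Ccr7 had log2 fold changes of 0.66, 0.37 and 0.21, and Ccl21a had 0.20 without MMP9 replicate 4.

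Pan-leukocyte markers were above 0 in 7 of 10, with a median of 0.18 and sums of 353 to 938 CPM in vehicle, against 615 to 945 CPM in MMP9. The lowest sum was that of vehicle replicate 3, the library with the least Lat, Zap70, Icos and Cd28. That library was the highest of the vehicle group for Cd3g. Cytip, Cd52, Cd53 and Arhgdib had log2 fold changes of 0.26, 0.44, 0.37 and 0.15, and without MMP9 replicate 4 Cytip had 0.17, Cd52 0.25 and Arhgdib 0.04. Relative to these markers, the summed level of the 9 T cell receptor genes was 0.114, 0.106, 0.164, 0.0722 and 0.0654 in vehicle and 0.119, 0.119, 0.115, 0.124 and 0.0804 in MMP9. Every MMP9 value lay inside the vehicle range, and the mean log2 ratio was 0.16 higher in MMP9 with an SD within groups of 0.42. The summed members were 56.4 to 61.4 CPM in vehicle, so the spread of the vehicle ratios came mostly from the markers. In MMP9 the summed members were 70.5 to 92.9 CPM, a difference that the choice of the set had used. Cd3g and Cd247 were the largest parts of the sum, with means of 20.7 and 14.3 CPM in vehicle. For single members the mean log2 difference of this ratio ran from -0.19 (Cd3e) to 0.63 (Cd28). The ratio was above all vehicle libraries in 4 MMP9 libraries for Icos, 3 for Lat, and 0 for Cd3g and Cd247. The summed level of the 9 members was also set against 9 other T cell genes (Cd4, Cd8a, Cd8b1, Cd2, Cd5, Cd6, Themis, Trat1 and Skap1). That ratio was 1.71 to 2.82 in vehicle and 1.92 to 2.71 in MMP9. The mean log2 difference was 0.05 with an SD within groups of 0.24, and -0.02 without MMP9 replicate 4.

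In the other tissue compartments, epidermal keratinocyte markers gave 1 above and 6 below 0 of 7, with a median of -0.11 and log2 fold changes of -0.31, -0.18, -0.11 and 0.10 for Dsg3, Trp63, Krt5 and Krt10. Skeletal muscle markers gave 3 above and 4 below 0, with a median of -0.01 that was -0.12 without MMP9 replicate 4, and values of -0.20, 0.20, -0.13 and -0.10 for Myh1, Tnni2, Myh4 and Acta1. Without that library Tnni2 turned to -0.09 and Acta1 had -0.22. Hair follicle keratins, of the hair shaft or, for Krt71 and Krt25, of the inner root sheath, were below 0 in 7 of 7, with a median of -1.22. Their sums were 2.51 to 4515 CPM in vehicle, against 3.58 to 1478 CPM in MMP9, a wide range within either group. Krt86, Krt35, Krt71 and Krt33a had log2 fold changes of -1.55, -1.44, -1.30 and -1.19.

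Outside the set, 14613 tested genes with a mean of at least 1 CPM were ranked by the likeness of their log2 CPM, over the 10 libraries, to the mean of the 9 members. The most alike was Ccbe1, which encodes a secreted protein of lymphatic growth, with a Pearson r of 0.934, followed by Cd244a, a receptor of natural killer cells and some T cells (0.908), and the atypical chemokine receptor gene Ackr2 (0.903). Gm5127 (0.902), Ptprcap, which encodes a protein associated with CD45 (0.896), Ms4a4b, a membrane protein of T cells (0.875), and the nonclassical class I gene H2-M3 (0.873) came next. Slc15a2, Commd10 and C1qtnf2 completed the first 10, at 0.868, 0.866 and 0.860. Centred on all 10 libraries, the mean of the members was -0.43 to -0.02 in vehicle and 0.08 to 0.24 in MMP9. The difference between the groups, which the choice of the set had used, therefore enters each r. The libraries also share similar depth and the same scaling, and the ranking is a description. The members themselves did not all vary together, so their mean does not stand for each member. Over pairs of members with the group means removed, r ran from -0.72 (Cd247 with Cd3e) to 0.84 (Lat with Cd28). With the group means removed, only Gm5127 (r = 0.893) and Ms4a4b (0.889) were still among the first 10, and Ccbe1 fell to rank 39 with 0.819. The rest fell further, from rank 130 for Ackr2 (0.753) to rank 883 for C1qtnf2 (0.552). Scpep1 (0.931), Ces2g (0.926) and H2-D1 (0.914) then came first.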

How the data were processed

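The authors deposited, for each library and gene, an estimated count of reads, of which 60.8% are not whole numbers. The deposited FPKM values relate these reads to transcript length and to the size of the library, per the file headers. The deposited TPM values are in addition brought to the same sum in every library, per the file headers. HISAT and the GRCm39 build are named in the submitters' processing notes, while the program that made the estimated counts, its annotation and its strand setting are unknown here. The 6 columns holding the authors' means were left out.

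Counts were rounded, and edgeR 4.0.16 (R 4.3.3) fitted treatment alone, with TMM factors, filterByExpr, the quasi-likelihood F test and Benjamini-Hochberg adjustment (threshold 0.05). The filter kept 15250 genes, among them all 9 members. Alternatives used DESeq2 1.42.0 and limma 3.58.1. The mouse numbers, 1 to 5 in each group, name separate mice and were not used as pairs. No 2 libraries were duplicates (lowest chi-square per gene 18.6).

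The members and all lists were chosen with earlier results of these data known. All members are named. For each list the tested genes with the smallest p are named, up to 4, or 6 for coreceptors and proximal partners. For the T cell lineage and the natural killer lists, the tested genes below 0 are named in addition. A few genes meeting this criterion are left unreported. Synonyms were looked up in RefSeq. Likeness used log2(CPM + 0.5). Promoter windows are from RefSeq, GRCm38.p6.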

Additional observations from a re-analysis of the deposited data

Results flagged for a closer look

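In groups of 5, a library was singled out where its gap to the nearest other library exceeded 0.71 of the group's range, which chance gives in about 1 of 20 groups. Of 52 groups examined, 8 were singled out, and many of these measures share genes and libraries. MMP9 replicate 4 was high for Cd3g at 40.5 CPM, for Cd247 at 23.9 CPM and for the count ratio of Cd3g to Cd3e at 7.13, and this is the library with 12.9% ribosomal protein reads. Vehicle replicate 5 was high for Cd247 at 16.7 CPM and for the ratio of Cd247 to Cd3e at 2.74. MMP9 replicate 5 was high for Cd28 at 1.37 CPM, which is 25 reads, and low for the ratio of the 9 members to pan-leukocyte markers at 0.0804. MMP9 replicate 1 was low for the ratio of Zap70 to Cd3e at 0.408.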

How the results depend on the processing

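Over 19 alternatives the count of genes past the threshold was 0 except with DESeq2, which called 1, and it was 0 in each of the 10 fits that left out 1 mouse. The median log2 fold change of the members was 0.44, from 0.37 to 0.47 when 1 mouse was left out, and 0.31 with limma on log2(TPM + 1). That pseudocount also took Cd28 from 0.65 to 0.15, and it understates low genes by construction. Of 170 values of single members under alternatives, 167 were above 0, and the 3 others were of Cd3e. The share of all tested genes above 0 ran from 36.1% to 59.5% over the settings. The alternatives reuse the same libraries, and the choice of the set had used this contrast, so nothing is read from this count. With the mouse number as a replicate block, 0 genes passed and the members' median was 0.43. Same-numbered mice did not deviate together in every case (r = -0.19 for number 1 and 0.44 for number 3), and 2 of 5 vehicle libraries correlated best with the MMP9 library of their number. Cd28 was below the filter of a mean of 1 CPM and has no value there. Cd28 and Icos are limited by depth, with 3 to 25 and 14 to 60 reads per library. The order of the members by level and the ratios to other T cell and pan-leukocyte genes moved by less than the spread between mice when FPKM or TPM was used instead.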
